A study of Mus musculus with 15 samples.

Results

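Leucine-rich repeat synaptic organizers are transmembrane proteins that carry leucine-rich repeats outside the cell and bind partners across the synaptic cleft or on neighbouring cells. The 10 genes described here were *Elfn1*, *Elfn2*, *Lrrtm1*, *Lrrtm2*, *Lrrtm3*, *Lrrtm4*, *Slitrk1*, *Slitrk3*, *Slitrk5* and *Flrt2*, chosen by name from the 26835 genes of the *Lhx6* table and the 25714 genes of the *Mtg8* table. They were chosen with earlier results of these data known, so their counts set beside shares of all genes only describe them. All 10 had a mean normalized count of at least 10 in both tables and entered every test. The libraries were made from YFP-positive cells sorted from the cortex of embryos at embryonic day 14.5, on a mixed C57BL6/CBA background. The Nkx2-1-Cre transgene switches on the R26R-YFP reporter in cells that descend from the medial ganglionic eminence (MGE), so the sort collects migrating MGE-derived cortical interneurons. *Lhx6* controls (*Lhx6*+/+, n = 4) and *Lhx6* mutants (*Lhx6*-/-, n = 5) formed one comparison, and *Mtg8* controls (*Mtg8*+/+, n = 3) and libraries labelled *Mtg8* mutant (*Mtg8*-/-, n = 3) formed the other. Every embryo, control or mutant, carried Nkx2-1-Cre and homozygous R26R-YFP fl/fl, and controls were littermates per the study's methods. Per the study's methods the *Lhx6* mutation is a germline loss-of-function allele and the *Mtg8* line named beside a conditional one is a LacZ knock-in, so neither mutation was limited to the sorted lineage.

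The families differ in the partners that they bind. ELFN proteins act from the postsynaptic side on presynaptic group III metabotropic glutamate receptors, and *Elfn1* is known for its expression in somatostatin interneurons, where it sets the facilitating release of glutamate onto these cells. LRRTM proteins bind neurexins and heparan sulphate proteoglycans at excitatory synapses, SLITRK proteins bind receptor tyrosine phosphatases of the LAR family, and FLRT proteins bind latrophilins and UNC5 receptors and can interact with ROBO1 during axon guidance and migration. At this age the sorted cells are still migrating, so their transcripts precede most synapse formation.

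The targeted genes were read first. *Lhx6* had a mean normalized count of 7247 in controls and 331 in *Lhx6* mutants. *Runx1t1*, the gene of MTG8, was not lower in the libraries labelled *Mtg8* mutant (mean 12845) than in *Mtg8* controls (mean 8891), and these are therefore named by their label throughout. Every labelled mutant lay above every control for *Runx1t1* (log2 fold change 0.54, adjusted p = 0.859 by limma). *Sst* in the same libraries had a mean normalized count of 6615, beside 16695 in *Mtg8* controls, with every labelled mutant below every control (log2 fold change -1.34, adjusted p = 0.0713 by limma). In the *Lhx6* table *Runx1t1* rose, from a mean of 7449 in controls to 17972.5 in mutants (log2 fold change 1.23, adjusted p = 0.0040 by limma). Total reads on genes per library ran from 12218422 (*Lhx6* mutant 6) to 18110287 in the *Lhx6* table and from 16139978 to 22053032 in the *Mtg8* table. Library names come with or without a leading date, and the sources used here do not say what the date is. All 4 *Lhx6* controls and *Lhx6* mutant 6 are undated and the other *Lhx6* mutants are dated, so genotype and name style can be told apart in that table only through mutant 6. Some libraries also share the opening numbers of their names, as *Lhx6* controls 1 and 2 do with *Lhx6* mutant 6, *Lhx6* mutants 2 and 5 with each other, and *Mtg8* controls 1 and 2 with labelled mutant 2, and the sources used here do not say what these numbers stand for. Among 13 markers of MGE interneurons, *Sst*, *Satb1* and *Lhx6* fell in *Lhx6* mutants, *Dlx5* and *Dlx6* rose, and 8 more did not pass the test. Their summed RPM (a gene's reads scaled to a common library total) ran from 3229 to 3982 in the controls and from 2118 to 3342 in the mutants, with mutant 6 lowest. The summed RPM of 6 caudal ganglionic eminence (CGE) genes ran from 98.9 to 127 in *Lhx6* controls and from 155 to 203 in *Lhx6* mutants, so the groups did not overlap. Of these 6 genes, *Htr3a* and *Npas1* fell, *Cxcl14* rose and 3 did not pass the test. The sum of 10 progenitor genes ran from 711.0 to 860 in *Lhx6* controls and from 584 to 1294 in the mutants, with mutant 6 highest, and the sum of 9 pyramidal neuron genes ran from 952 to 1342 and from 718 to 1031. No gene of either list was called by limma, and at an unadjusted p under 0.05 the progenitor gene *Sox2* was higher and 4 pyramidal neuron genes were lower. Over all genes tested, 7.11% were higher and 5.63% lower at that threshold. *Sox2*, named after its values were seen, had means of 1027 in the controls and 2139 in the mutants, with every mutant above every control (log2 fold change 0.95, adjusted p = 0.115 by limma). No gene of these lists was at 0 in any library of this table. The sum of red blood cell genes ran from 399 to 3873 in *Lhx6* controls, with control 3 highest, and from 117 to 1255 in the mutants. The sum of subpallial projection neuron genes ran from 11.3 to 30.1 in the controls and from 11.1 to 108 in the mutants, with mutant 2 highest, and *Gbx1* of this list was at 0 in 7 of the 9 libraries. Of its 5 genes tested, 2 were higher and 1 lower at an unadjusted p under 0.05 in limma, beside 7.11% and 5.63% of all genes tested. *Lhx8*, named after its values were seen, had means of 14.3 in the controls and 63.2 in the mutants. Every mutant lay above every control for *Lhx8* (log2 fold change 2.05, adjusted p = 0.0982 by limma). The lower gene, *Tac1*, also named after its values were seen, had means of 74.2 in the controls and 26.75 in the mutants. Its groups overlapped and it was at 0 in 2 mutants (log2 fold change -3.71, adjusted p = 0.176 by limma). Sums for microglia, vascular cells and oligodendrocyte precursors did not exceed 33.9 RPM in any *Lhx6* library, and several of their markers were at 0 in some of them (*Cx3cr1* in 1 library, *Cldn5* in 3, *Sox10* in 3). The part of these other cells in the results was not tested. In sorted bulk cells, fewer cells that express a gene and less RNA per cell cannot be told apart.

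Loss of *Lhx6* was compared with control first, to ask which organizers of this family depend on its presence in MGE-derived cells. *Elfn1* fell to 27.4% of its control level and *Flrt2* to 58.8% of it, 2 of the 10 members, where 0.682% of the 16727 genes tested in the table were called lower. No member was called higher by limma, DESeq2 or edgeR, where 1.03% of genes were by limma, and none rose at an unadjusted p under 0.05, where 7.11% of genes did. The remaining 8 members did not pass the test. Of the 10, 7 had a log2 fold change below 0, beside 53.4% of all genes tested, and the median log2 fold change was -0.18 over the members and -0.04 over all genes tested. The test was limma with Benjamini-Hochberg adjustment over all genes tested, two-sided, on log2(normalized count + 1), and every log2 fold change below is on that scale.

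The promoters of the 2 genes that fell are shown because they are the stretches nearest the start of transcription of the genes that carry the result. They come from RefSeq on GRCm38.p6, 5′ to 3′ on the plus strand, with 250 bases before the annotated start in lower case and the 50 bases from the start on in capitals. The *Elfn1* window lies at chr5:139907616-139907915 and the *Flrt2* window at chr12:95691976-95692275. For *Elfn1* the RefSeq start, 139907866, lies before the gene start of 139907943 given below, so its capitals precede that other start. For *Flrt2* both starts are at 95692226.
Elfn1: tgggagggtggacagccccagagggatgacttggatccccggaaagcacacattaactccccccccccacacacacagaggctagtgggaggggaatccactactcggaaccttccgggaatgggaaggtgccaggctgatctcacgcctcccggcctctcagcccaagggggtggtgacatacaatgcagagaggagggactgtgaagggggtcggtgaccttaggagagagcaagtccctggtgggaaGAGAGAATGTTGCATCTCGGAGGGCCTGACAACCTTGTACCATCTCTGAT
Flrt2: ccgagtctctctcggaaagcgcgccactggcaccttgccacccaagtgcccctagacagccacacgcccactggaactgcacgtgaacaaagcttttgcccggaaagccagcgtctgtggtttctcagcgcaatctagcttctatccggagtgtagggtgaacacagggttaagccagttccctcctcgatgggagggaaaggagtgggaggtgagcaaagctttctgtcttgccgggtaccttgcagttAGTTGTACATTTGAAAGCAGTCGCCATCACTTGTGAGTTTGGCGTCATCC
RefSeq gave 10 windows of this length for 9 members, with *Lrrtm4* at 2 starts. The motif TAATTA, which reads the same on both strands and is the core bound by many homeodomain proteins, was found in 0 of these 10 windows and in 5.29% of the 32851 windows of all genes. This says only that these letters are not in these windows. The GC content was 59.0% for *Elfn1* and 55.3% for *Flrt2*, beside a median of 52.7% over all windows.

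*Elfn1* (ENSMUSG00000048988.8, protein coding, GRCm38 chromosome 5 from 139907943 to 139974722, plus strand) reached normalized counts of 339, 302, 480.0 and 257 in *Lhx6* controls 1 to 4. In *Lhx6* mutants 1, 2, 3, 5 and 6 its normalized counts were 113, 73.1, 119, 117 and 50.8. Every mutant lay below every control. The control mean was 345 ± 96.2 (SD, n = 4) and the mutant mean was 94.6 ± 30.9 (SD, n = 5), or 27.4% of control. On the log2 scale this was a change of -1.89 with a standard error of 0.30 (adjusted p = 0.00434 by limma). In an exact permutation test p was 0.00794, which no arrangement of 4 and 5 libraries can go under. Among all genes tested, 3.03% had every mutant below every control. Mutant 6, the undated mutant, was the lowest, and its difference from the 4 undated controls was -2.701 on the log2 scale, a value of 1 library with no test. Its name opens with the same numbers as those of controls 1 and 2, and *Elfn1* stood at 50.8 in it beside 339 and 302 in these. *Elfn1* remained called with each of the 9 libraries left out in turn, at log2 fold changes from -2.02 to -1.69.

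*Flrt2* (ENSMUSG00000047414.6, chromosome 12 from 95692226 to 95785215, plus strand) was the most abundant member and encodes an adhesion molecule that also acts as a repulsive cue when its ectodomain is shed. Its normalized counts were 1818, 1281, 1965 and 1500 in the controls and 1286, 897, 867, 790 and 988 in mutants 1, 2, 3, 5 and 6. Mutant 1 lay just above control 2 and the other 4 mutants lay below all controls. The control mean was 1641 ± 309 (SD, n = 4) and the mutant mean 965 ± 193 (SD, n = 5). The log2 fold change of -0.77 had a standard error of 0.18, and its adjusted p of 0.0492 by limma was close to the threshold. *Flrt2* remained called without mutant 1 (adjusted p = 0.00925) and lost its call without any of the other 8 libraries, with adjusted p from 0.0513 to 0.205 by limma. Mutant 6 differed from the 4 undated controls by -0.71 on the log2 scale, also with no test.

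*Lrrtm4* (ENSMUSG00000052581.13, chromosome 6 from 80018877 to 80810143, plus strand), which binds glypicans as well as neurexins, varied little among controls, with normalized counts of 440.3, 473, 479 and 451. The mutants held 369, 276, 275, 382 and 217, all below all controls. Controls averaged 461 ± 18.4 (SD, n = 4) and mutants 304 ± 69.8 (SD, n = 5). The log2 fold change of -0.63 (standard error 0.19) had an unadjusted p of 0.00594 by limma and did not pass the adjustment (adjusted p = 0.151). DESeq2 on the reads recovered from the table gave an adjusted p of 0.0416. For *Lrrtm4*, mutant 6 alone differed from the 4 undated controls by -1.08 on the log2 scale, a value of 1 library with no test. *Lrrtm4* shares 1543 exonic bases, 25.1% of its exonic length, with the antisense gene *Gm4409*, and the sources used here do not say that strand was marked or counted, so reads from both genes there cannot be told apart. Together with *Elfn1* it was 1 of 2 members with every mutant below every control, beside 3.03% of all genes tested.

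*Lrrtm3* had normalized counts of 64.4, 51.4, 68.2 and 24.8 in controls and 76.7, 75.0, 89.4, 67.8 and 76.8 in mutants. All mutants but mutant 5 lay above all controls, and mutant 5 lay just below control 3. Its log2 fold change was 0.65 (95% interval -0.06 to 1.35, adjusted p = 0.434 by limma), so the direction opposite to that of *Lrrtm4* did not pass the test. Without control 4, the lowest library, it was 0.33. Within the LRRTM family, *Lrrtm1* and *Lrrtm2* had log2 fold changes of -0.18 and -0.06. Their 95% intervals ran from -0.85 to 0.49 and from -0.55 to 0.43, which leaves room for changes in either direction. *Lrrtm1* lay from 165 to 186 in controls and from 79.2 to 264 in mutants, a control range that sat inside the mutant range.

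*Elfn2*, the paralogue of *Elfn1*, had normalized counts of 63.4, 61.2, 86.6 and 52.2 in controls and 193, 132, 80.1, 97.8 and 43.3 in mutants. Mutant 6 was the lowest of all 9 libraries and mutant 1 the highest. Its log2 fold change was 0.58 (95% interval -0.25 to 1.41, adjusted p = 0.552 by limma), an interval that does not overlap the interval of *Elfn1* (-2.53 to -1.25). Mutant 6 alone differed from the undated controls by -0.57, so the direction of *Elfn2* was not the same within the undated names. *Elfn2* shares 266 exonic bases, 3.28% of its exonic length, with the antisense gene *1700041B01Rik*.

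Among the SLITRK genes, whose products contribute to excitatory or inhibitory synapse formation, *Slitrk3* is known for inhibitory synapses. Its normalized counts ran from 136 to 282 in controls and from 185 to 398 in mutants, with a log2 fold change of 0.45 (95% interval -0.16 to 1.06). *Slitrk1* ran from 254 to 399 in controls and from 217 to 337 in mutants, with a log2 fold change of -0.19. *Slitrk5* ran from 96.1 to 225 in controls and from 40.9 to 204 in mutants, with a log2 fold change of -0.36 and the widest interval of the 10 (-1.30 to 0.58). In all 3 SLITRK genes the groups overlapped, and their adjusted p by limma ran from 0.531 to 0.736. Without mutant 6, whose *Slitrk5* count was the lowest, the log2 fold change of *Slitrk5* was 0.03. For *Slitrk5*, *Slitrk1* and *Slitrk3*, mutant 6 alone differed from the 4 undated controls by -1.92, -0.52 and 0.27 on the log2 scale, with no test. Mutant 6 was the lowest of the 9 libraries for 6 of the 10 members and control 3 was the highest for 6.

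**Figure D1:**
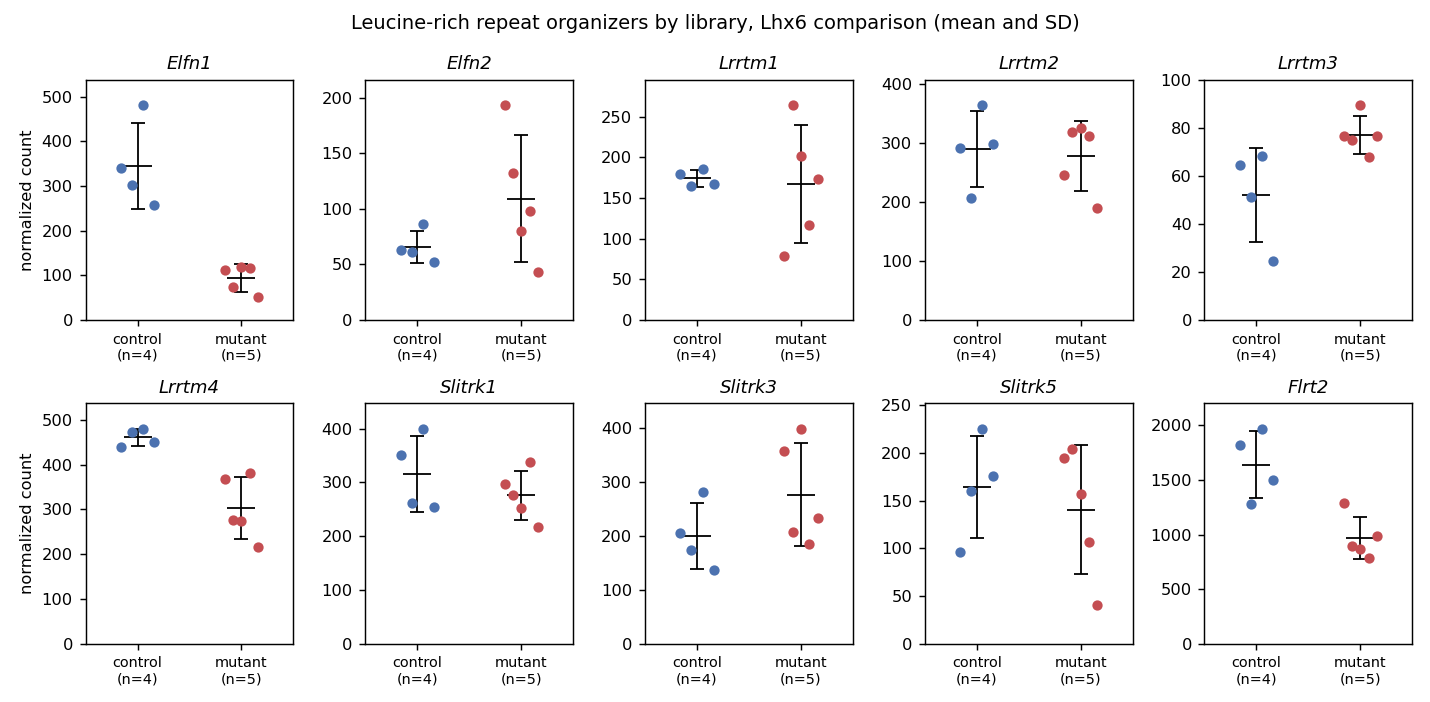
Normalized count of each member (vertical axes, each from 0) in *Lhx6* controls (blue, n = 4) and *Lhx6* mutants (red, n = 5); each point is 1 embryo, in order of replicate number from left to right, and the black lines are the mean and SD. The groups are separate for *Elfn1* and *Lrrtm4*, nearly so for *Flrt2*, and overlap for the others.

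Across the 10 members, the exact permutation tests in both tables numbered 20, and after Benjamini-Hochberg adjustment over these 20 the smallest p was 0.119.

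The labelled *Mtg8* mutants were then compared with their controls, to ask whether the same organizers differ when the label is loss of *Mtg8*. No member was called, and 0% of the 16132 genes tested were called in either direction. Without adjustment, limma put 886 genes (5.49%) under 0.05, 393 of them lower (2.44%). The only member among them was *Slitrk3*, with an unadjusted p of 0.0356 and an adjusted p of 0.859 from limma. DESeq2 called 31 genes and edgeR 1 gene, with no member among them. Of the 10 members, 6 had a log2 fold change below 0, beside 51.5% of all genes tested.

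*Slitrk3* stood at 642, 594 and 762 normalized counts in *Mtg8* controls 1, 2 and 4 and at 483, 299 and 563 in labelled mutants 2, 3 and 4. All 3 labelled mutants lay below all controls, with means of 666 ± 86.6 (SD, n = 3) and 448 ± 135 (SD, n = 3) and a log2 fold change of -0.61 (95% interval -1.18 to -0.05). *Flrt2* had normalized counts of 2099, 2259 and 1954 in the controls and of 1895, 780.3 and 1851 in the labelled mutants. Again all 3 lay below the controls, 2 of them closely, and the log2 fold change was -0.59 (95% interval -1.23 to 0.06). These were the 2 members whose groups did not overlap in this direction, where 5.52% of all genes tested showed the same, and exact permutation tests gave p = 0.1 for each, a floor set by 3 libraries a group.

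*Elfn1* stood at 1055, 1023 and 831 in *Mtg8* controls and at 762, 439 and 976 in labelled mutants, so the groups overlapped. Its log2 fold change was -0.48 (95% interval -1.09 to 0.12, adjusted p = 0.866 by limma), an interval that lay above the one in *Lhx6* mutants (-2.53 to -1.25). The difference between both comparisons was not tested, since each table was fitted on its own. *Slitrk1* had normalized counts of 1019, 1159 and 941 in the controls and of 1143, 261 and 836 in the labelled mutants. Its log2 fold change of -0.72 was the lowest of the members here, with a 95% interval from -1.62 to 0.19.

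Labelled mutant 3 was the lowest of the 6 libraries for 8 of the 10 members, and the lowest of the 3 labelled mutants for 9. Without it, the log2 fold changes were -0.35 for *Slitrk3*, -0.17 for *Flrt2*, -0.16 for *Elfn1* and -0.08 for *Slitrk1*. This library had the highest sum of the 10 progenitor genes, 777 RPM, where the controls ran from 419 to 475 and the other labelled mutants held 580 and 591. The sum of 13 MGE genes ran from 4090.4 to 4457 in *Mtg8* controls and from 2694 to 3905 in the labelled mutants, and the sum of 6 CGE genes from 80.7 to 92.0 and from 94.6 to 113. The sum of 9 pyramidal neuron genes ran from 294 to 725 in the controls and from 525 to 1207 in the labelled mutants, with labelled mutant 2 highest, and all 9 genes had a log2 fold change above 0. No marker gene of this table was called by limma. At an unadjusted p under 0.05, 4 of the 9 pyramidal neuron genes and 3 of the 10 progenitor genes were higher and 6 of the 13 MGE genes were lower. Of all genes tested, 5.49% stood under 0.05 in either direction and 2.44% were lower. Of the MGE genes, 11 had a log2 fold change below 0, and 6 had every labelled mutant below every control, beside 5.52% of all genes tested. No gene of these lists was at 0 in any library of the *Mtg8* table. The sum of 5 subpallial projection neuron genes ran from 7.06 to 13.7 in the controls and from 13.8 to 15.4 in the labelled mutants, so the groups did not overlap, with *Lhx8* at 0 in 1 library of each group. The sum of 6 microglia genes was 46.9 in control 2 and at most 7.61 in the other libraries. Sums for vascular cells ran from 6.26 to 35.7 and from 11.6 to 20.6, those for oligodendrocyte precursors from 0.341 to 15.3 and from 2.51 to 29.0, and those for red blood cells from 601 to 1448 and from 861 to 1712. At an unadjusted p under 0.05, the CGE, subpallial, oligodendrocyte precursor and red blood cell lists each had 1 gene higher and 0 lower. These lists had 6, 4, 3 and 5 genes tested. The CGE gene, *Sp8*, named after its values were seen, had means of 83.5 in controls and 225 in labelled mutants. Every labelled mutant lay above every control for *Sp8* (log2 fold change 1.45, adjusted p = 0.636 by limma). The share of all genes placed in this way, as *Sp8* and *Runx1t1* were, was not counted. The part of these cells in the members' values was not tested.

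The remaining members had intervals that spanned 0 on both sides. *Lrrtm3* had a log2 fold change of 0.54 (95% interval -0.42 to 1.498), with labelled mutant 2 the highest library at a normalized count of 236, and without that library it was 0.063. *Lrrtm2* had -0.27, *Slitrk5* -0.15, *Elfn2* 0.11, *Lrrtm4* 0.08 and *Lrrtm1* 0.06 as log2 fold changes. Their adjusted p by limma ran from 0.886 to 0.983, and the groups overlapped for each of these 6 genes.

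**Figure D2:**
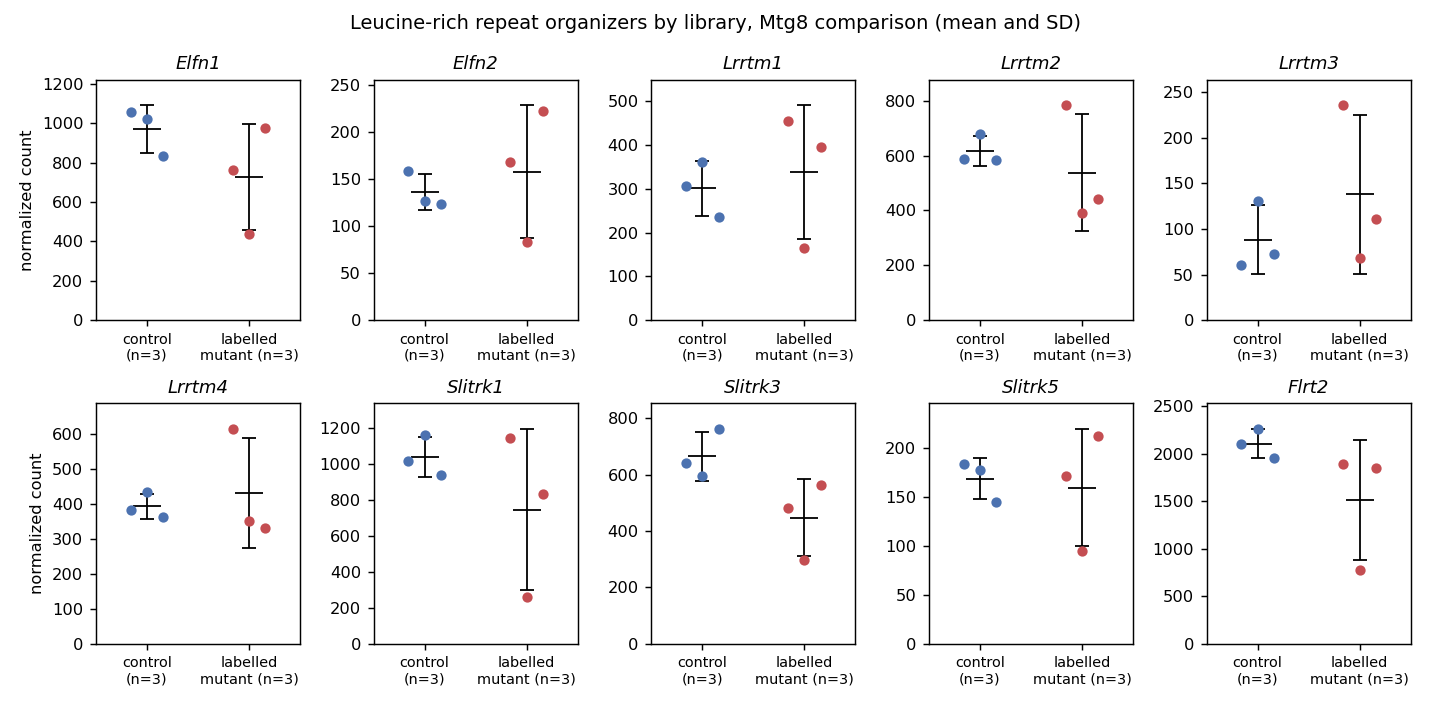
Normalized count of each member (vertical axes, each from 0) in *Mtg8* controls (blue, n = 3) and libraries labelled *Mtg8* mutant (red, n = 3); each point is 1 embryo, in order of replicate number, and the black lines are the mean and SD. The middle red point, labelled mutant 3, is the lowest of the 6 libraries in 8 panels, and the groups are separate only for *Slitrk3* and *Flrt2*.

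**Figure D3:**
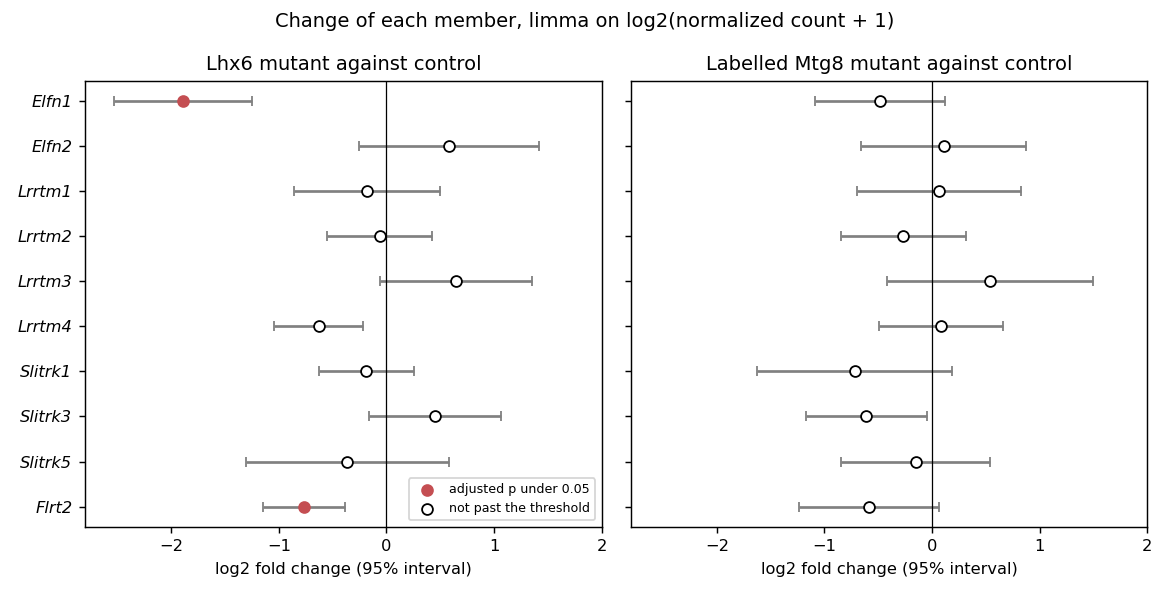
Log2 fold change of each member (horizontal axis, mutant minus control, on the log2(normalized count + 1) scale) with its 95% interval from limma, for the *Lhx6* table on the left and the *Mtg8* table on the right. Filled red points had an adjusted p under 0.05, which only *Elfn1* and *Flrt2* did, at -1.89 and -0.77 in the *Lhx6* table.

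Levels were compared between members as normalized counts per kilobase of exon. In *Lhx6* controls *Flrt2* led with 213 ± 40.0 (SD, n = 4), above every other member in every library. *Elfn1* followed at 82.6 ± 23.1, *Lrrtm4* at 75.0 ± 2.99, *Slitrk1* at 59.0 ± 13.2, *Lrrtm1* at 57.5 ± 3.38, *Lrrtm2* at 48.1 ± 10.7, *Slitrk3* at 41.2 ± 12.8 and *Slitrk5* at 31.2 ± 10.1. *Lrrtm3* at 12.3 ± 4.62 and *Elfn2* at 8.12 ± 1.81 came last. The ranges of neighbours in this order overlapped except between *Flrt2* and *Elfn1* and between *Slitrk5* and *Lrrtm3*.

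In *Lhx6* mutants *Flrt2* was still first at 125 ± 24.9 (SD, n = 5) per kilobase and *Elfn2* last at 13.5 ± 6.99. *Elfn1* stood at rank 8 with a level of 22.7 ± 7.41, between *Slitrk5* and *Lrrtm3*, where it had held rank 2 in controls. The other members had group means between 18.1 and 56.9 per kilobase in the mutants, and *Slitrk3* stood at rank 2, where it had held rank 7 in controls. The ranges of all neighbours from rank 2 to rank 10 overlapped in the mutants, so this order was not separated by the spread between libraries.

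In *Mtg8* controls the order began with *Flrt2* at 273 ± 19.7 (SD, n = 3), *Elfn1* at 232 ± 29.0, *Slitrk1* at 194 ± 20.6 and *Slitrk3* at 137 ± 17.9 per kilobase, and ended again with *Elfn2* at 16.8 ± 2.41. *Flrt2* and *Elfn1* kept the first places in the labelled mutants, at 195 ± 81.8 and 174 ± 64.8, where all neighbours overlapped.

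The controls of the 2 lines were set side by side with no test, as RPM because the tables were normalized separately. *Elfn1* had a mean of 22.8 in *Lhx6* controls and 52.1 in *Mtg8* controls, 2.29 times as high. The ranges did not overlap for 6 of the 10 members, beside 47.1% of the 15629 genes tested in both tables. For 5 of the 10 the *Mtg8* controls were all higher, beside 16.7% of these genes. *Slitrk1* and *Slitrk3* were 2.67 and 2.703 times as high there, *Lrrtm2* 1.74 and *Elfn2* 1.69 times, and *Lrrtm4* was lower at 0.694 times. *Flrt2* differed little, with a ratio of 1.04. What else differs between the lines and their library preparation was not tested.

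**Figure D4:**
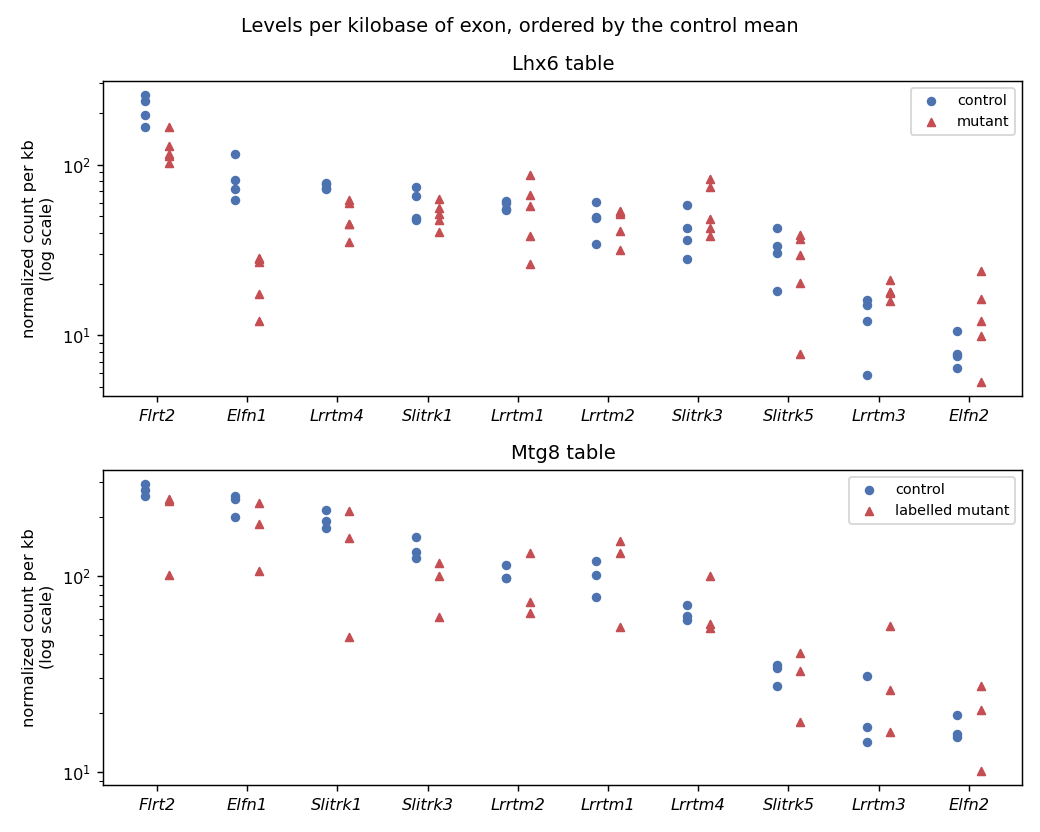
Normalized count per kilobase of exon (vertical axis, log scale) for each member in every library, with genes ordered by their mean in the controls of each table; blue circles are controls and red triangles are mutants or labelled mutants. By group mean *Flrt2* stands highest in both tables and *Elfn2* lowest, although the order differs in single libraries, and *Elfn1* has rank 2 in *Lhx6* controls and rank 8 in *Lhx6* mutants.

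The proteins that these organizers bind were read from a list of 28 partner genes, of which 23 were tested in the *Lhx6* table. This list and the other gene lists below were chosen with earlier results of these data known. Their counts and medians are therefore descriptive. In *Lhx6* mutants 2 of them fell and 4 rose, beside 0.682% and 1.03% of all genes tested, and 17 did not pass the test by limma. DESeq2 called 2 lower and 7 higher, and at an unadjusted p under 0.05 in limma 2 were lower and 10 higher, beside 5.63% and 7.11% of all genes tested. With library name style as a covariate, where mutant 6 alone carries the genotype effect, 1 was lower and 0 higher. The median log2 fold change of the list was 0.63, beside -0.04 over all genes tested.

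The LAR phosphatases, the receptors of SLITRK proteins, included a gene that fell and a gene that rose. *Ptprd*, whose product pairs with SLITRK3 at inhibitory synapses, had normalized counts of 2602, 2228, 2727 and 2662 in controls and of 823, 613, 374, 712 and 537 in mutants 1, 2, 3, 5 and 6. The groups were far apart, at 2555 ± 224 (SD, n = 4) and 612 ± 171 (SD, n = 5). *Ptprd* changed by -2.11 on the log2 scale with a standard error of 0.20 (adjusted p = 9.46e-05 by limma), and *Ptprd* remained called under all 21 alternative settings. *Ptprf* rose, from a mean of 1220 ± 108 (SD, n = 4) to 2378 ± 476 (SD, n = 5), with every mutant above every control, as in 3.19% of all genes tested. This was a log2 fold change of 0.95 with a standard error of 0.15 (adjusted p = 0.00566 by limma). The third of these receptors, *Ptprs*, named here after its values were seen, had a log2 fold change of 0.17 (95% interval -0.09 to 0.44).

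*Robo1* and *Unc5c*, whose products interact with FLRT proteins, rose. *Robo1*, a receptor for SLIT guidance cues, had normalized counts of 395, 412, 372 and 365 in controls and of 2222, 1105, 1221, 1089 and 685 in mutants. The log2 fold change of *Robo1* was 1.604, with a standard error of 0.26 (adjusted p = 0.00574 by limma). *Unc5c*, a netrin receptor, went from a mean of 199 ± 63.5 (SD, n = 4) to 694 ± 266 (SD, n = 5), at a log2 fold change of 1.76 (adjusted p = 0.0122 by limma). In both genes every mutant lay above every control and mutant 6 was the lowest mutant. The log2 fold changes of *Unc5a*, *Unc5b* and *Unc5d*, named after their values were seen, were 0.92, 0.63 and -0.27, and none passed the test.

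Of the group III metabotropic glutamate receptors, the partners of ELFN proteins, *Grm4* and *Grm8* were tested and are named after their values were seen. *Grm4* went from a mean of 64.2 ± 29.8 (SD, n = 4) to 197 ± 85.6 (SD, n = 5), at a log2 fold change of 1.63 that did not pass the test (95% interval 0.72 to 2.54, adjusted p = 0.0816 by limma), and the groups overlapped. *Grm8* was low, with a mean of 2.91 in controls and 21.7 ± 31.0 (SD, n = 5) in mutants (adjusted p = 0.562 by limma).

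Among the glypicans, heparan sulphate proteoglycans of the cell surface and a class that holds partners of LRRTM4, *Gpc2* fell and *Gpc6* rose. *Gpc2* went from 69.6 ± 3.28 (SD, n = 4) to 22.1 ± 9.52 (SD, n = 5), at a log2 fold change of -1.71 (adjusted p = 0.0390 by limma). It lost its call without any of the 4 controls, mutant 2 or mutant 5, with adjusted p from 0.0690 to 0.143 by limma. *Gpc6* went from 92.3 ± 20.3 to 225 ± 44.1, at a log2 fold change of 1.28 (adjusted p = 0.0141 by limma), and lost its call without control 2 (0.0513) or control 4 (0.0646). Mutant 6 alone differed from the 4 undated controls by -2.24 for *Ptprd* and by -1.52 for *Gpc2* on the log2 scale. For *Ptprf*, *Gpc6*, *Robo1* and *Unc5c* these differences were 0.63, 0.80, 0.83 and 0.79, all values of 1 library with no test.

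**Figure D5:**
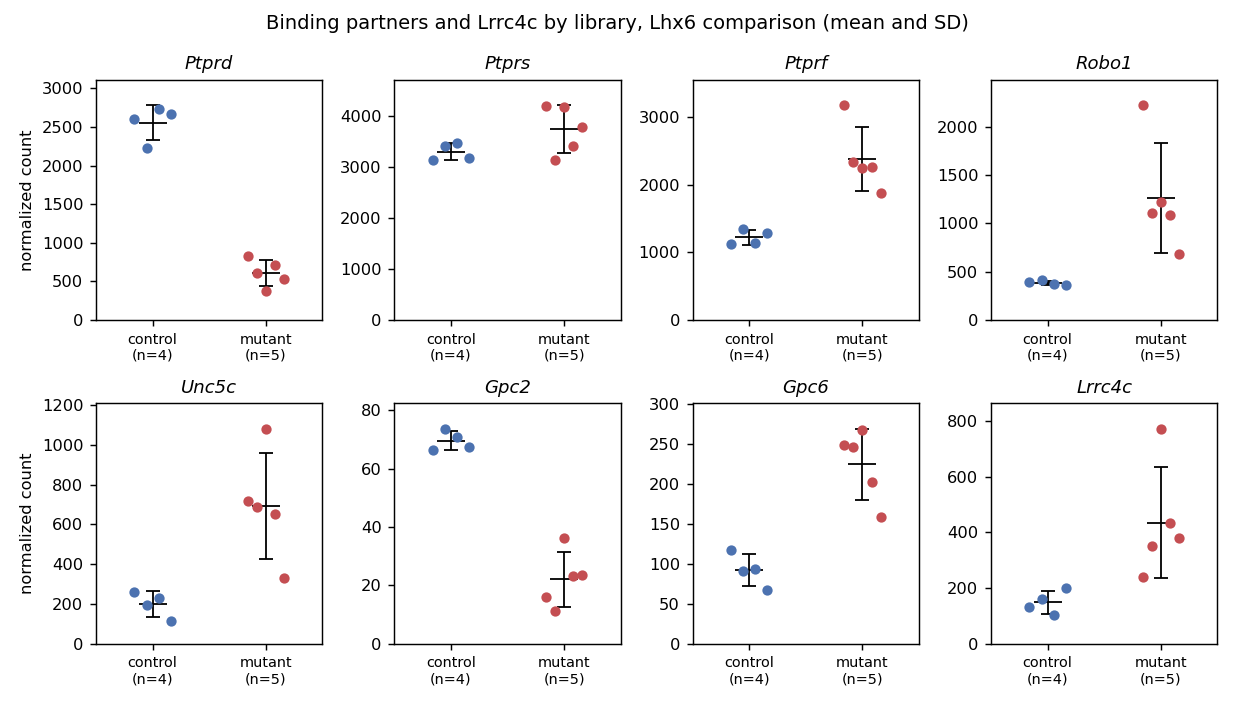
Normalized counts (vertical axes, each from 0) of 7 binding partners and of *Lrrc4c* in *Lhx6* controls (blue, n = 4) and *Lhx6* mutants (red, n = 5); each point is 1 embryo, in order of replicate number, with the mean and SD in black. *Ptprd* and *Gpc2* lie lower in all mutants, *Ptprf*, *Robo1*, *Unc5c*, *Gpc6* and *Lrrc4c* lie higher in all mutants, and the groups overlap for *Ptprs*.

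Of 37 other genes for leucine-rich repeat proteins of neurons, 30 were tested in the *Lhx6* table, and by limma 0 fell and 1 rose, beside 0.682% and 1.03% of all genes tested. At an unadjusted p under 0.05, 2 were lower and 10 higher, beside 5.63% and 7.11% of all genes. DESeq2 called 2 lower and 6 higher, and limma with library quality weights 2 lower and 5 higher. The gene that rose was *Lrrc4c*, which encodes the netrin-G1 ligand NGL-1, at a log2 fold change of 1.48 (adjusted p = 0.0274 by limma). Its mean went from 149 ± 41.3 (SD, n = 4) to 435 ± 201 (SD, n = 5), and it lost its call without control 1, 2 or 3 or mutant 2 or 5, with adjusted p from 0.0559 to 0.107 by limma. For *Lrrc4c*, mutant 6 alone differed from the 4 undated controls by 1.39 on the log2 scale, a value of 1 library with no test. The median log2 fold change of this list was 0.52, beside the same -0.04. *Flrt1* and *Flrt3*, the paralogues of *Flrt2* and named after their values were seen, had log2 fold changes of 0.78 and 0.65 with adjusted p of 0.136 and 0.0991 by limma.

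Of 20 synaptic organizers and scaffolds without leucine-rich repeats, 17 were tested in the *Lhx6* table and none was called by limma or edgeR. At an unadjusted p under 0.05 in limma, 0 were lower and 5 higher, beside 5.63% and 7.11% of all genes tested. DESeq2 called 4 of them higher, limma with library quality weights 3, and limma without mutant 6 or mutant 3 called 2 and 1. The smallest adjusted p were those of *Cadm2*, an adhesion molecule (log2 fold change 0.95, 0.0621 by limma), and *Dlg1*, a scaffold protein (0.87, 0.0804). *Lrrtm1*, *Lrrtm2* and *Lrrtm3* lie within the spans of the catenin genes *Ctnna2*, *Ctnna1* and *Ctnna3* on the opposite strand, and *Lrrtm2* shares 95 exonic bases with *Ctnna1*. Since strand is not said to have been counted, catenin reads that fall on exons of these LRRTM genes cannot be told apart. In *Lhx6* controls *Ctnna2* had a mean normalized count of 2759, beside 174 for *Lrrtm1*. *Ctnna2* and *Ctnna1* had log2 fold changes of -0.22 and -0.18 in the *Lhx6* table and neither passed the test.

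In the *Mtg8* table no partner, other leucine-rich repeat gene or other synaptic organizer was called by limma, edgeR or DESeq2, of 22, 28 and 17 genes tested. At an unadjusted p under 0.05 in limma stood 1, 1 and 2 of them, beside 5.49% of all genes tested. The genes with the smallest p in these 3 lists were *Slitrk6*, with a log2 fold change of -2.68 at means of 28.3 and 3.99 (adjusted p = 0.769 by limma), *Lrrc4* (-0.62), *Nrxn3* (-0.72), *Adgrl1* (-0.45), *Il1rap* (1.23) and *Nlgn2* (-0.53), all at an adjusted p of 0.859 except *Slitrk6*. *Ctnna1* and *Ctnna2* had log2 fold changes of 0.33 and -0.24 there (adjusted p of 0.875 and 0.886 by limma). *Ptprd* had normalized counts from 1201 to 2248 in the controls and from 1292 to 1664 in the labelled mutants, a mutant range that sat inside the control range.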

How the data were processed

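RNA was taken from YFP-positive cells sorted from single embryos, 15 libraries in all. Per the labels, cDNA libraries were made with the NEBNext low-input kit and sequenced as single reads. No source used here states that strand was marked. The authors used fastp 0.20.1 for trimming, STAR 2.7b for alignment and featureCounts 1.6.4 for counting, and sex-linked genes were filtered out. The strand setting of the counting is not given in the sources used here. The signal that the authors deposited is a count per gene scaled by a library size factor from DESeq2, in a separate table for each line. The tables also hold the authors' own comparisons (fold changes and p-values), which were not used. The deposited gene length is another column, in bases, and was used for levels per kilobase.

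Divided by what 1 read was worth in its library, 100% of values came out whole within 0.01. The analysis plan assumed normalized values, so limma 3.58.1 under R 4.3.3, with its trend option, was run on log2(normalized count + 1) after genes with a mean under 10 had been left out. It was two-sided and adjusted by Benjamini-Hochberg over all genes tested, with a threshold of 0.05. Single members were also given exact permutation tests in Python 3.11.15. Other settings were a pseudocount of 0.5 or 10, all genes kept, a minimum mean of 50, quantile normalization, TMM factors, limma without the trend, library quality weights, library name style as a covariate, recovered reads in edgeR 4.0.16 and in DESeq2 1.42.0, a replicate block, and each library left out. Values within each name style were added after the data were seen. The few embryos per group limit the precision. Overlaps came from GENCODE M21 and promoters from RefSeq, both on GRCm38.

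The members and lists were chosen with earlier results of these data known, and 1 planned marker gene is not reported here. Named genes were the members, the targeted genes and, in each list of partners, other leucine-rich repeat genes, other organizers and catenins, up to 4 called genes a direction with the largest changes or, where none was called, the 2 with the smallest p. Cell type markers were outside this rule, and those named were called, at 0 in some library or singled out after their values were seen.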

Additional observations from a re-analysis of the deposited data

How the results depend on the processing

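Under the alternatives, *Elfn1* in *Lhx6* mutants kept its direction in all 21 and its call in 20, and *Flrt2* kept its direction in all 21 and its call in 8. The count of members called lower was 1 with a pseudocount of 0.5, with no filter, without the trend or with name style as a covariate, and from 1 to 2 with 1 library left out. With that covariate the *Lhx6* genotype effect is mutant 6 alone against 4 controls, with its spread assumed to be that of the other libraries. *Lrrtm4* was called as well by DESeq2. With 1 library left out, partners called in the *Lhx6* table numbered from 1 to 2 lower and from 3 to 7 higher (7 without mutant 6), other leucine-rich repeat genes from 0 to 1 lower and from 0 to 2 higher, and other synaptic organizers 0 lower and from 0 to 2 higher. Genes called in the *Lhx6* table numbered 286, and 844 with quality weights, 57 with name style as a covariate, 811 by DESeq2 and from 159 (without control 1) to 492 (without mutant 6) with 1 library left out. Genes called in the *Mtg8* table numbered 0, and 1 with no filter, 2 with a minimum mean of 50, 2 with quality weights, 1 by edgeR, 31 by DESeq2 and from 0 to 87 (without labelled mutant 2) with 1 library left out, with no member among them. The cause was not tested.

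Replicate numbers are shared between groups, but no label says that a number marks a litter or a day. The opening numbers of library names link other libraries instead, *Lhx6* controls 1 and 2 with mutant 6 and *Mtg8* controls 1 and 2 with labelled mutant 2, so the *Mtg8* values within dated names are also those within these shared numbers. The deviations of same-numbered libraries correlated at -0.15, 0.00 and 0.07 in the *Lhx6* table and at 0.14 and 0.16 in the *Mtg8* table. With a replicate block, which rests on 3 and on 2 pairs, 0 members were called in the *Lhx6* table (*Elfn1* -1.87, adjusted p = 0.0632 by limma), with 86 genes called there and 100 in the *Mtg8* table. The block left 1 partner called lower, 2 partners higher and 0 other leucine-rich repeat genes in *Lhx6* mutants. It called 2 other leucine-rich repeat genes higher in the labelled *Mtg8* mutants.

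Log2 fold changes of members that did not pass the test changed sign as follows. In the *Lhx6* table *Elfn2* was -0.57 with name style as a covariate and within undated names. *Lrrtm1* ranged from -0.37 to 0.056 with 1 library left out (above 0 without mutant 1). *Lrrtm2* was 0.072 with the replicate block and ranged from -0.22 to 0.069 with 1 library left out (above 0 without control 3 or mutant 6). *Slitrk5* was 0.28 with the block and ranged from -0.60 to 0.027 (above 0 without mutant 6). In the *Mtg8* table, with 1 library left out, *Elfn2* ranged from -0.19 (without mutant 4) to 0.51, and *Lrrtm1* from -0.21 to 0.51 (below 0 without control 4, mutant 2 or mutant 4). *Lrrtm4* ranged from -0.20 (without mutant 2) to 0.24. *Slitrk5* was 0.25 with the block and ranged from -0.39 to 0.18 (without mutant 3). Within dated names *Lrrtm2* was 0.31 and *Slitrk1* 0.072, and within undated names *Lrrtm4* was -0.092.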
